A study of Mus musculus with 12 samples.

Results

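Muscle calcium handling and excitation coupling was followed in whole back skin through 10 genes: Ryr1, Cacna1s, Cacng1, Atp2a1, Casq1, Srl, Jph1, Jph2, Pvalb and Aqp4. The members are the probes whose gene name in the array files equals one of these names, which gives 18 of 41174 probes and 10 of 27373 gene names. Male C57BL/6J mice, 8 weeks old at purchase, had their backs shaved and received 200 µL of solution per day on the skin. MXD is 3% minoxidil, the positive control for hair growth, N-CE is a 10% extract of cells of the cactus Notocactus ottonis, and VC is the vehicle of propylene glycol, ethanol and water. Skin was taken at 1W, 2W and 3W, where W is the week of treatment. Each group of a week gave 1 RNA pool from 6 mice. A dye swap of 2 arrays, Cy5 on the treated pool in array 1 and on VC in array 2, set each treated pool against VC of the same week. The 12 arrays hold 6 comparisons without a biological replicate, and MXD and N-CE share the VC pool of the week. A shift in whole skin can come from fewer muscle fibres in the sample or from less RNA per fibre, and these cannot be told apart here.

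In a skeletal muscle fibre, the action potential runs into the transverse tubules, where the dihydropyridine receptor (Cacna1s is its voltage sensor subunit and Cacng1 its gamma subunit) senses it and opens the ryanodine receptor Ryr1 in the sarcoplasmic reticulum. The junctophilins Jph1 and Jph2 hold the tubule and the reticulum together, calsequestrin (Casq1) stores calcium in the reticulum lumen and sarcalumenin (Srl) is another calcium-binding protein there, and the pump SERCA1 (Atp2a1) returns calcium to the store. Parvalbumin (Pvalb) buffers calcium in the cytosol of fast fibres, and aquaporin 4 (Aqp4) is the water channel in the membrane of fast fibres. Mouse back skin holds such fibres in the panniculus carnosus, the thin muscle sheet under the dermis.

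All 10 genes were down-regulated in MXD at 2W, to between 0.328 and 0.423 of VC. In MXD at 1W 9 of 10 were down-regulated, to between 0.503 and 0.662 of VC, and the other, Cacng1, stood at 0.840. At 3W 2 of 10 passed in MXD, Srl and Aqp4, while the other 8 were lower on both arrays without passing. In N-CE, 0 of 10 were called at any week. Down-regulated here means an error-model P under 0.01 on both arrays of the dye swap, in the same direction, with a mean fold below 0.75. The thresholds are those of the study, and the need to pass on both arrays was set here. The P describes a spot and not the mice. Among all gene names above background, 1.26% (1W), 10.0% (2W) and 0.286% (3W) were called down in MXD. For N-CE the shares were 2.78% (1W), 0.0749% (2W) and 0.213% (3W).

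Over the 10 genes the median log2 fold was -0.80 ± 0.14 (1W), -1.31 ± 0.29 (2W) and -0.47 ± 0.043 (3W) for MXD, with an SD taken over one median per array. For N-CE it was -0.10 ± 0.029 (1W), -0.44 ± 0.19 (2W) and -0.34 ± 0.058 (3W). The median given is that of the gene means and can lie outside both array medians, which were -0.14 and -0.18 in N-CE at 1W. An SD over 2 array medians says little about precision, here and for the gene lists below. Over all gene names above background, the 6 medians lay between -0.0057 and 0.026. Values below 0 on both arrays were found for all 10 genes in MXD at each week, where 33.2%, 33.7% and 27.2% of all gene names were so. In N-CE the count was 6 of 10 (1W), 8 (2W) and 10 (3W), against 29.0%, 18.2% and 28.3% of all gene names. The plot of log2 folds by array shows the lowest mean for MXD at 2W in each gene.

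**Figure D1:**
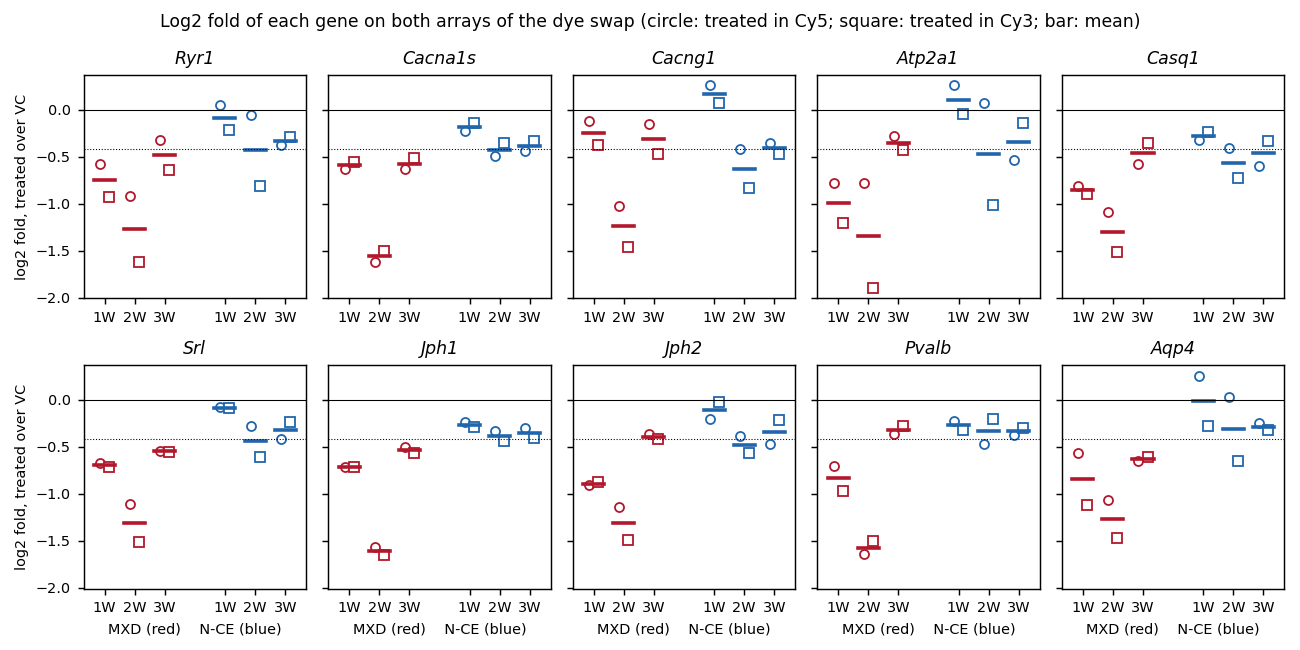
Log2 fold of treated over VC (vertical axis) for each of the 10 genes on its brightest probe, by week (horizontal axis), MXD in red and N-CE in blue; circles are arrays with the treated pool in Cy5, squares those with it in Cy3, bars their mean, and the dotted line marks a fold of 0.75. All MXD points lie below 0 and MXD at 2W has the lowest mean in each gene, between -1.61 and -1.24.

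Between 57.0% and 69.6% of the spots of a channel were well above background. The brightest probe of each of the 10 genes was well above background in 24 of 24 channel readings, so each fold has a measured level on both sides. Markers of back skin were present, with the lists of epidermis, fibroblast and hair shaft and matrix genes at 7 of 7, 6 of 6 and 10 of 10 above background in MXD at 2W. Across gene names above background in all comparisons, N-CE at 1W ran against MXD at 2W on arrays of the same dye orientation (r = -0.38 and -0.47). The dyes of each channel are given in the labels, and the direction was kept. The dye swap of N-CE at 2W correlated with r = -0.18 across the gene names well above background in every comparison, so its values rest on arrays that disagreed more than in the other 5 comparisons, where r ran from 0.17 to 0.70. Across the gene names above background in a comparison, r for MXD was 0.23 (1W), 0.53 (2W) and 0.027 (3W). For N-CE it was 0.39 (1W), -0.19 (2W) and 0.084 (3W), so the arrays at 3W barely correlated either. Gene names are not independent replicates.

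The array reads each gene through 60-base probes. The folds of Ryr1 and Atp2a1 rest on their brightest probes, and those of Casq1 and Cacng1 on their only probes. The next Ryr1 and Atp2a1 probes and the dimmer Jph1 probe do not enter the folds of their genes. Each printed probe has a reading frame without a stop through its whole length, as does every other member probe. The sequences are given 5′ to 3′ in lower case as in the array's design. The brightest Ryr1 probe covers chr7:29788789-29789487 and the next chr7:29789818-29790524, both on the minus strand of mm9 and both spread over more than 1 exon, since they span 699 and 707 bases of the genome. Those of Atp2a1 lie at chr7:133590098-133590441 (the brighter, spread over 344 bases) and chr7:133591703-133591762, on the minus strand. The Casq1 probe covers chr1:174140602-174142105 on the minus strand, a span of 1504 bases, and the Cacng1 probe chr11:107565096-107565155 on the minus strand. The dimmer Jph1 probe lies at chr1:16987562-16987621 on the minus strand.
Ryr1, brightest probe: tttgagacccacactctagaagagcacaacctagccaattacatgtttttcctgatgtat
Ryr1, next probe: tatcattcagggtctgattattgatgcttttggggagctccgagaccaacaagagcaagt
Atp2a1, brightest probe: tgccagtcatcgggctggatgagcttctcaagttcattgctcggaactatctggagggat
Atp2a1, next probe: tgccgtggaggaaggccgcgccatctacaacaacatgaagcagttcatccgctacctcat
Casq1: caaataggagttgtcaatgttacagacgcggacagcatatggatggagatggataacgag
Cacng1: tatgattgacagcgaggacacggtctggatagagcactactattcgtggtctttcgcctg
Jph1, dimmer probe: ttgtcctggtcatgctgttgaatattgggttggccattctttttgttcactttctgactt

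Of the voltage sensor, Cacna1s gave log2 folds in MXD of -0.63 and -0.56 (1W), -1.62 and -1.51 (2W) and -0.63 and -0.52 (3W). The means were -0.59 ± 0.056, -1.56 ± 0.077 and -0.57 ± 0.076 (SD over 2 arrays, as in all values below). In N-CE the Cacna1s values were -0.23 and -0.15 (1W), -0.50 and -0.36 (2W) and -0.44 and -0.33 (3W), all below 0 and all above the MXD values of the same week. Its 3W value in MXD missed the call on P alone, with P of 0.0030 and 0.013 on the 2 arrays. The brightest probe lies at chr1:138016020-138016079 on the plus strand of mm9. A dim Cacna1s probe, above background in 16 of 24 readings, gave -1.40 ± 0.25 in MXD at 2W, and -0.19 after normexp background correction and loess.

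Cacng1, the gamma subunit of the same receptor, was the exception at 1W. Its MXD values were -0.12 and -0.38 (1W), -1.02 and -1.46 (2W) and -0.15 and -0.47 (3W), so the 1W mean of -0.25 ± 0.18 was the smallest shift of the 10 genes. By 2W it had reached -1.24 ± 0.31, close to the other members. N-CE gave 0.26 and 0.074 (1W), -0.42 and -0.83 (2W) and -0.36 and -0.47 (3W): higher than VC on both arrays at 1W, where MXD was lower on both, and lower on both at 2W and 3W. The N-CE mean of -0.63 ± 0.29 at 2W was the lowest of any member in N-CE, and it was not called because P was 0.043 on the array with N-CE in Cy5.

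Ryr1, the calcium release channel, stood in MXD at -0.58 and -0.93 (1W), -0.92 and -1.62 (2W) and -0.33 and -0.64 (3W). In N-CE the brightest probe gave 0.044 and -0.22 (1W), -0.053 and -0.81 (2W) and -0.37 and -0.29 (3W). Values were higher with the treated pool in Cy5 than in Cy3 in 5 of 6 comparisons, by 0.70 in MXD and 0.76 in N-CE at 2W. The next probe gave -0.86 ± 0.075, -1.34 ± 0.31 and -0.45 ± 0.010 in MXD at the 3 weeks, against -0.75 ± 0.25, -1.27 ± 0.49 and -0.48 ± 0.22 for the brightest. The last Ryr1 probe did not follow. It was designed on a complementary DNA clone rather than the RefSeq transcript, lies at chr7:29807633-29807692 on the minus strand of mm9, and gave 0.13 ± 0.36, -0.053 ± 0.35 and -0.090 ± 0.38 in MXD. Its mean processed signal over 24 readings was 85.7, against 8103 for the brightest Ryr1 probe.

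Casq1 and Srl of the calcium store were both down-regulated in MXD at 1W and 2W. Casq1 gave -0.81 and -0.90 (1W), -1.09 and -1.51 (2W) and -0.58 and -0.35 (3W) in MXD, and -0.32 and -0.24 (1W), -0.41 and -0.73 (2W) and -0.60 and -0.33 (3W) in N-CE. It was the lowest member in N-CE at 1W and at 3W, with -0.28 ± 0.054 and -0.47 ± 0.19, and at 3W its MXD mean was -0.46 ± 0.16. Srl, read at chr16:4480486-4480545 on the minus strand of mm9, gave -0.67 and -0.71 (1W), -1.11 and -1.51 (2W) and -0.54 and -0.56 (3W) in MXD. It was down-regulated at all 3 weeks, with folds of 0.620, 0.404 and 0.683. Aqp4 was the only other member down-regulated at all 3 weeks. In N-CE the Srl values were -0.079 and -0.087 (1W), -0.28 and -0.60 (2W) and -0.41 and -0.23 (3W), all negative and none called.

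Both junctophilins were down-regulated in MXD at 1W and 2W and not called at 3W. Jph1, at chr1:16985204-16985263 on the minus strand of mm9, stood in MXD at -0.71 and -0.71 (1W), -1.57 and -1.65 (2W) and -0.50 and -0.56 (3W). Its 2W mean of -1.61 ± 0.062 was the lowest of the 10 genes, a fold of 0.328. The N-CE values were -0.24 and -0.29 (1W), -0.34 and -0.44 (2W) and -0.30 and -0.40 (3W). Jph2, at chr2:163162620-163162679 on the minus strand, had -0.91 and -0.87 (1W), -1.14 and -1.49 (2W) and -0.36 and -0.42 (3W) in MXD and -0.21 and -0.019 (1W), -0.39 and -0.57 (2W) and -0.47 and -0.22 (3W) in N-CE. The dimmer probes gave -1.20 ± 0.12 for Jph1 and -1.39 ± 0.46 for Jph2 in MXD at 2W. With normexp and loess these became -0.79 and -0.52, while the bright probes kept -1.59 and -1.23.

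Atp2a1, the calcium pump, had the lowest mean of the 10 genes in MXD at 1W, -0.99 ± 0.30 or a fold of 0.503. Its values in MXD were -0.78 and -1.20 (1W), -0.78 and -1.90 (2W) and -0.28 and -0.43 (3W). In N-CE they were 0.26 and -0.048 (1W), 0.067 and -1.01 (2W) and -0.54 and -0.14 (3W). The 2W arrays of this gene differed by 1.12 between the dye orientations in MXD and by 1.08 in N-CE, the widest gaps of any member. An effect of the dye cancels in the mean of the swap, and the N-CE mean at 2W, -0.47 ± 0.76, lay within its SD of 0. The second Atp2a1 probe gave -1.07 ± 0.31, -1.44 ± 0.59 and -0.34 ± 0.050 in MXD, within the spread of the brightest.

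Pvalb, the cytosolic calcium buffer, gave -0.70 and -0.97 (1W), -1.64 and -1.51 (2W) and -0.37 and -0.28 (3W) in MXD, a range from folds of 0.336 at 2W to 0.800 at 3W. In N-CE it gave -0.23 and -0.32 (1W), -0.47 and -0.20 (2W) and -0.37 and -0.30 (3W). All 12 values were negative. The probe lies at chr15:78021647-78021706 on the minus strand of mm9. Aqp4, on chromosome 18, stood in MXD at -0.57 and -1.12 (1W), -1.06 and -1.47 (2W) and -0.65 and -0.61 (3W) on its brightest probe, and at 0.26 and -0.28 (1W), 0.027 and -0.66 (2W) and -0.25 and -0.33 (3W) in N-CE. The MXD mean at 3W, -0.63 ± 0.026, was the lowest of the 10 genes that week. It is the dimmest member, and its 3W value was -0.36 with normexp and loess. The other Aqp4 probes gave -0.43 ± 0.15 and -0.48 ± 0.081 at 3W, neither called.

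**Figure D2:**
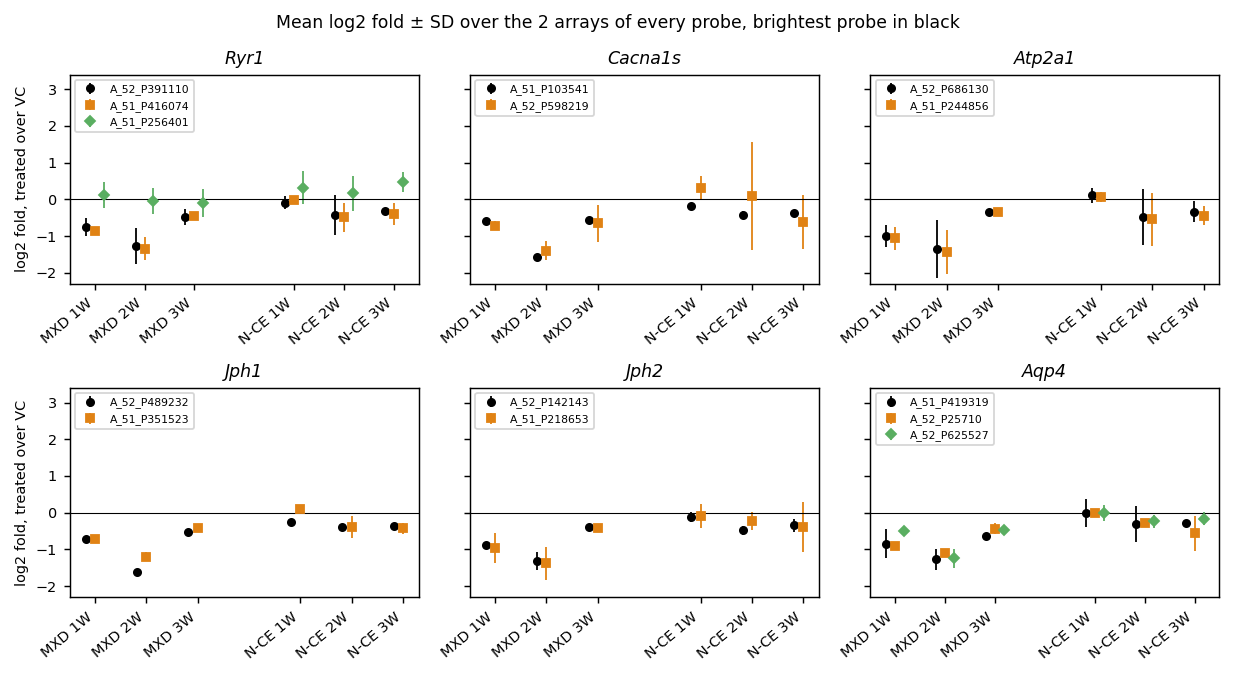
Mean log2 fold over VC (vertical axis) ± SD over the 2 arrays for every probe of the 6 genes with more than 1 probe, by comparison (horizontal axis), with the brightest probe of a gene in black. Probes of a gene lie on the same side of 0 in MXD except the clone-based Ryr1 probe, which stays near 0 with -0.053 ± 0.35 at 2W.

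By probes, 14 of 18 (1W), 16 of 18 (2W) and 2 of 18 (3W) were called down in MXD. Both probes that were not called at 2W are dim, the clone-based Ryr1 probe and the dim Cacna1s probe. Without the P threshold, the mean fold was below 0.75 for 9 of 10 genes (1W), 10 (2W) and 6 (3W) in MXD, against 7.31%, 22.0% and 3.01% of all gene names. In N-CE this gave 0 of 10 (1W), 7 of 10 (2W) and 1 of 10 (3W), against 8.52%, 2.67% and 5.30%. The 7 genes in N-CE at 2W were Ryr1, Cacna1s, Cacng1, Atp2a1, Casq1, Srl and Jph2, with means from -0.63 to -0.43. Of these, Ryr1 and Atp2a1 had means smaller than their SD over the dye swap.

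MXD and N-CE were compared directly by the difference of their log2 folds within a week, in which the shared VC pool and the dye effect of a matched orientation cancel. At 1W the mean of all 10 genes was lower in MXD, with differences from -1.10 in Atp2a1 to -0.41 in Cacna1s. Both MXD arrays lay below both N-CE arrays for 10 of 10 genes, as they did for 30.5% of all gene names. At 2W the differences ran from -1.24 in Pvalb to -0.61 in Cacng1, and the arrays did not overlap for 9 of 10 genes, against 24.3% of all gene names. For Atp2a1 they overlapped. Compared dye by dye, its difference was -0.85 with the treated pools in Cy5 and -0.89 with them in Cy3. At 3W the treatments lay closer. Differences ran from -0.34 in Aqp4 to 0.10 in Cacng1, and the arrays did not overlap, with MXD lower, for 4 genes, Cacna1s, Srl, Jph1 and Aqp4, against 16.4% of all gene names. The median difference of the 10 genes was -0.59 (1W), -0.87 (2W) and -0.10 (3W).

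**Figure D3:**
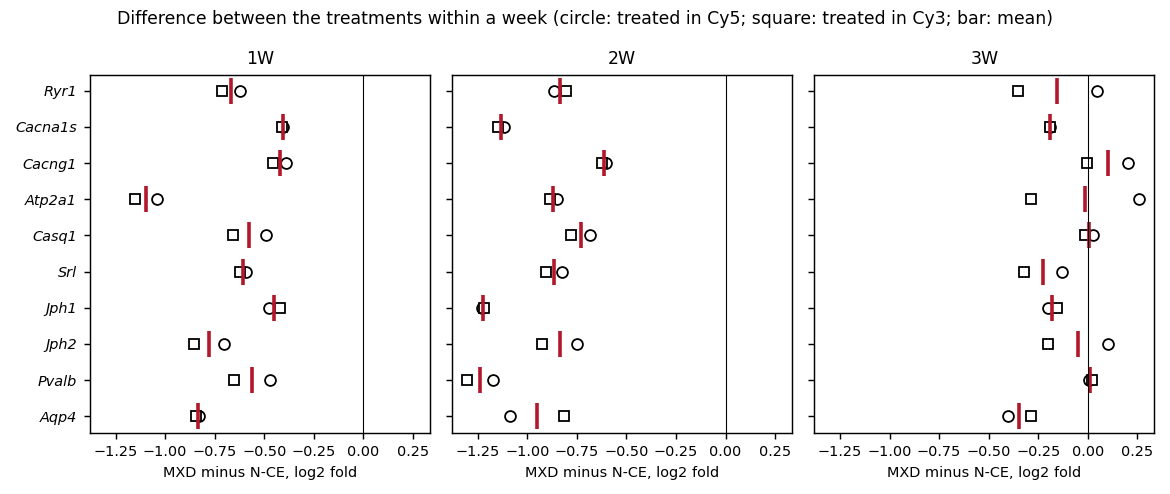
MXD minus N-CE difference of log2 folds (horizontal axis) for each of the 10 genes at 1W, 2W and 3W; circles compare arrays with the treated pool in Cy5, squares those with it in Cy3, and bars are means. Every point lies below 0 at 1W and 2W, while at 3W the points scatter around 0 with a median of -0.10.

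With the 3 weeks standing in for replicates, limma's moderated test on the weekly log2 folds, adjusted by Benjamini-Hochberg over all probes, called 0 of 18 member probes in MXD, 0 in N-CE and 0 in their difference. It called 0% of all probes in each of the 3 fits. At an unadjusted p under 0.05 in limma, 17 of 18 member probes passed for MXD, as did 2616 of all 25291 probes tested. For N-CE it was 8 of 18 and 527 of 26277, and for the difference 14 of 18 and 1795 of 24949. For Ryr1 the limma mean in MXD was -0.84 (95% interval -1.28 to -0.39, adjusted p = 0.463) and the limma mean of MXD minus N-CE was -0.55 (95% interval -0.97 to -0.13, adjusted p = 0.672). Left without 3W, the limma fit of the difference called 9 of 18 member probes, with 4.41% of all probes, at a lowest adjusted p of 0.0428 among the members. The same fit without 1W and the one without 2W each called 0 probes. Weeks are not replicates of one condition, and week and any batch of arrays cannot be told apart.

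The levels behind the folds can be followed over the 9 pools. A level here is the log2 processed signal minus the 75th percentile of its channel, which is comparable between pools for a probe but not between probes. Ryr1 read 3.68, 3.76, 3.93 and 3.96 in the VC channels at 1W, 3.05, 3.59, 2.89 and 3.33 (2W) and 2.77, 3.20, 2.96 and 2.62 (3W). Its MXD readings were 3.10 and 2.83 (1W), 2.13 and 1.96 (2W) and 2.45 and 2.56 (3W), all under the VC readings of their week. The N-CE readings of Ryr1 were 3.98 and 3.74 at 1W, inside the VC range or just above it, then 2.83 and 2.51 at 2W and 2.58 and 2.34 at 3W. Jph1 read 2.98, 2.94, 2.95 and 2.98 in VC at 1W and 2.27 and 2.23 in MXD, and these VC readings had the narrowest spread of any member that week. At 2W Jph1 read 2.75, 2.70, 2.51 and 2.06 in VC, 1.18 and 1.03 in MXD and 2.17 and 1.63 in N-CE.

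Of the 9 pools, MXD at 2W had the lowest mean level for 9 of 10 genes, and for 7 of these both readings lay under all readings of the next pool. The exceptions among the 9 were Cacng1, where N-CE at 3W overlapped it, and Casq1, where MXD at 3W did. Aqp4 was lowest in MXD at 3W, with -2.64 and -2.70. The same pools came out lowest after normexp, loess and Aquantile normalization. The highest mean level was in VC at 1W for 5 genes, in N-CE at 1W for 4 and in VC at 2W for Casq1, and the VC and N-CE readings at 1W overlapped in all but Casq1, Jph1 and Cacng1. These orders of pools and overlaps were not counted over all gene names, so how unusual they are was not tested. In MXD at 2W, 23.2% of all gene names had both readings below the 4 VC readings. VC itself moved over the weeks. The mean VC level was lower at 3W than at 1W for all 10 genes, with differences from -0.49 in Jph2 to -0.98 in Jph1 on the log2 scale, and all 4 readings at 3W lay below all 4 at 1W for 8 of 10, against 25.3% of all gene names. Over all gene names the median difference was -0.065. The folds at 3W were therefore taken against a lower VC level than those at 1W. Week and any batch of arrays cannot be told apart in these level differences, while each fold is taken within an array.

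Within a week, both MXD readings lay below all 4 VC readings for 9 (1W), 10 (2W) and 8 (3W) of the 10 genes, against 19.3%, 23.2% and 7.52% of all gene names. For N-CE the counts were 2, 4 and 6, against 16.7%, 6.58% and 10.6%. Pvalb was the gene that kept MXD from 10 at 1W. Its VC readings at 1W were 3.57, 2.44, 2.84 and 4.87, a spread of 2.43 between arrays of the same RNA, and its MXD readings were 2.87 and 1.47. The ratios within the 2 arrays were -0.70 and -0.97, and the array with the lower VC reading also held the lower MXD reading. For the other 9 genes the widest VC spread in a week was between 0.36 and 0.99.

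**Figure D4:**
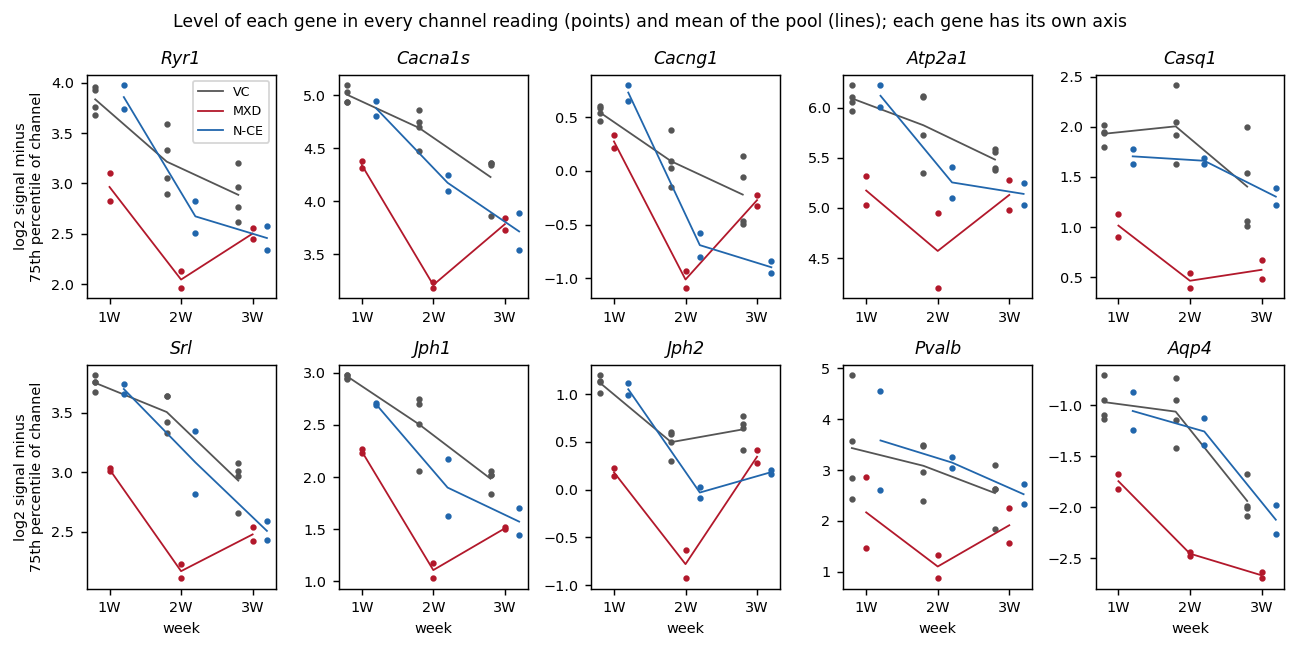
Level of each of the 10 genes (vertical axis, log2 processed signal minus the 75th percentile of the channel, own scale per gene) at 1W, 2W and 3W (horizontal axis) in VC (grey), MXD (red) and N-CE (blue); points are channel readings, 4 per week for VC and 2 for each treatment, and lines join the means. MXD at 2W is the lowest pool for 9 of 10 genes, and the VC line ends lower at 3W than at 1W in all 10.

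Of 34 other calcium handling and coupling genes, 16 of 32 above background were down-regulated in MXD at 2W and 0 up-regulated. At 1W it was 3 of 31 down and 1 up, where 1.25% of all gene names were called up, and at 3W 0 of 31. In N-CE 0 of 32 to 33 were called at any week. The list's median in MXD was -0.28 ± 0.0022, -0.71 ± 0.17 and -0.096 ± 0.014 at the 3 weeks, less far from 0 than the median of the 10 genes. By the rule that names the largest shifts, Sln and Sypl2 (-1.52 ± 0.31), the latter a membrane protein of the triad junction, led the list at 2W. Others down-regulated at 2W include triadin (Trdn, -1.29 ± 0.23), Asph, whose locus also encodes junctin (-1.17 ± 0.14), which anchor calsequestrin to the release channel, the receptor subunits Cacna2d1 (-1.34 ± 0.12) and Cacnb1 (-1.31 ± 0.47), and Stac3 (-1.45 ± 0.55), which the voltage sensor needs for coupling.

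The exception was sarcolipin (Sln), the small inhibitor of the SERCA pump. It was up-regulated in MXD at 1W with 1.22 ± 0.098, when Atp2a1 stood at -0.99 ± 0.30. At 2W it was down-regulated with -1.76 ± 0.020, the largest shift of the list, and at 3W it gave 0.24 ± 0.15. In N-CE, Sln gave 0.040 ± 0.17, -0.24 ± 0.0060 and -0.39 ± 0.11. Ankrd1 and Myh3, listed with regenerating or embryonic muscle, were up-regulated in MXD at 1W too, with 3.03 ± 0.14 and 2.75 ± 0.19, and so was Myog (1.06 ± 0.081), a regulator of muscle differentiation. With normexp and loess the 3 gave 2.46, 1.33 and 0.73 in that order. These 3 genes were picked here after their values in MXD were seen. Of the 9 genes of their list above background at 1W, 7 were higher than VC and 2 lower, from -0.92 to 3.03. Among the 9, 4 were up-regulated and 1 down-regulated.

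Some paralogs of the members gave other values in MXD at 2W, while Cacng6 was down-regulated too. Atp2a2, the pump of slow and cardiac muscle and of most cells, stood at 0.57 ± 0.54 in MXD at 2W, and Atp2a3 at -0.13 ± 0.26, against -1.34 ± 0.79 for Atp2a1. Casq2, the cardiac and slow calsequestrin, gave -0.45 ± 0.084 against -1.30 ± 0.30 for Casq1, and -0.26 with normexp and loess. Jph4 gave 0.25 ± 0.21, and Jph3 was well above background in 1 of 4 readings. Ryr2 and Ryr3, the other release channels, were not well above background in any reading of the 3 MXD comparisons. In N-CE at 2W Ryr2 was so in 3 of 4 readings and Ryr3 in 2 of 4. Cacng6, the paralog of Cacng1, was down-regulated in MXD at 1W with -0.74 ± 0.054, where Cacng1 was not, and at 2W with -1.06 ± 0.20. Cacng6 is dim, and with normexp and loess these values were -0.35 and -0.49. The difference between a member and its paralog was not tested.

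Other muscle genes were down-regulated beside the members. In MXD at 2W, 9 of 13 genes of sarcolemma excitability and the neuromuscular junction, 8 of 16 of the dystrophin complex and T tubule and 22 of 22 of fast and general skeletal muscle were down-regulated. Their medians were -1.05 ± 0.29, -0.98 ± 0.098 and -1.46 ± 0.19, beside -1.31 ± 0.29 for the 10 genes. With normexp and loess they were -0.56, -0.82 and -1.43, and -1.30 for the 10 genes. Among the leading genes were Rapsn (-1.58 ± 0.63, or -0.63 with normexp and loess), which clusters acetylcholine receptors, caveolin 3 (Cav3, -1.44 ± 0.039) of the dystrophin and tubule list, and titin (Ttn, -1.80 ± 0.51) and the actinin Actn2 (-1.63 ± 0.28). At 1W the medians of the same lists were -0.31 ± 0.19, -0.30 ± 0.037 and -0.60 ± 0.13. The slow skeletal muscle list gave -0.39 ± 0.21 at 2W (-0.21 with normexp and loess) with 3 of 7 down-regulated (Myoz2 and Mybpc1 the furthest, -1.51 ± 0.093 and -1.49 ± 0.26) and 1 up-regulated, Tnni1, against 6.21% of all gene names called up. In N-CE at 1W, where no member was called, 4 of 9 slow muscle genes passed as lower, and of these only Tnnt1 (-0.76 ± 0.21) was well above background in both groups. The median of the list of regenerating or embryonic muscle in MXD was 0.57 ± 0.11 at 1W, with 4 of 9 up-regulated and 1 down-regulated, and -1.24 ± 0.61 at 2W, with 4 of 8 down-regulated. With normexp and loess these medians were 0.30 and -0.42.

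Among the other cell types of skin, 4 of 10 hair shaft and matrix genes passed as higher in MXD at 1W and 10 of 10 at 2W, with medians of 0.65 ± 0.0032 and 1.32 ± 0.17. In N-CE at 1W 10 of 10 hair genes were down-regulated, with a median of -2.35 ± 0.20, while the 10 members stood at -0.10 ± 0.029. The summed signal of the hair list went from 296525 in VC to 745749 in MXD at 2W, and that of the 10 members from 157999 to 61761. Fibroblast genes had a median of -0.84 ± 0.14 and adipocyte genes -0.61 ± 0.12 in MXD at 2W, with 3 of 6 and 4 of 8 down-regulated. Of smooth muscle genes 4 of 8 were down-regulated, Synpo2 (-1.44 ± 0.21) and Lmod1 (-1.18 ± 0.31) the furthest, while the other 4 did not pass. Of epidermis genes 3 of 7 were down-regulated and 1 up-regulated, of leukocyte genes 2 of 6 down-regulated, and of Schwann cell and nerve genes 1 of 7. The medians of smooth muscle, Schwann cell and nerve, epidermis and leukocyte genes were -0.26 ± 0.12, -0.60 ± 0.32, -0.56 ± 0.68 and -0.35 ± 0.13. At 3W the hair list stood at 0.30 ± 0.0036 in MXD and 0.13 ± 0.14 in N-CE. The part of these other cell types in the values of the 10 genes was not tested.

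**Figure D5:**
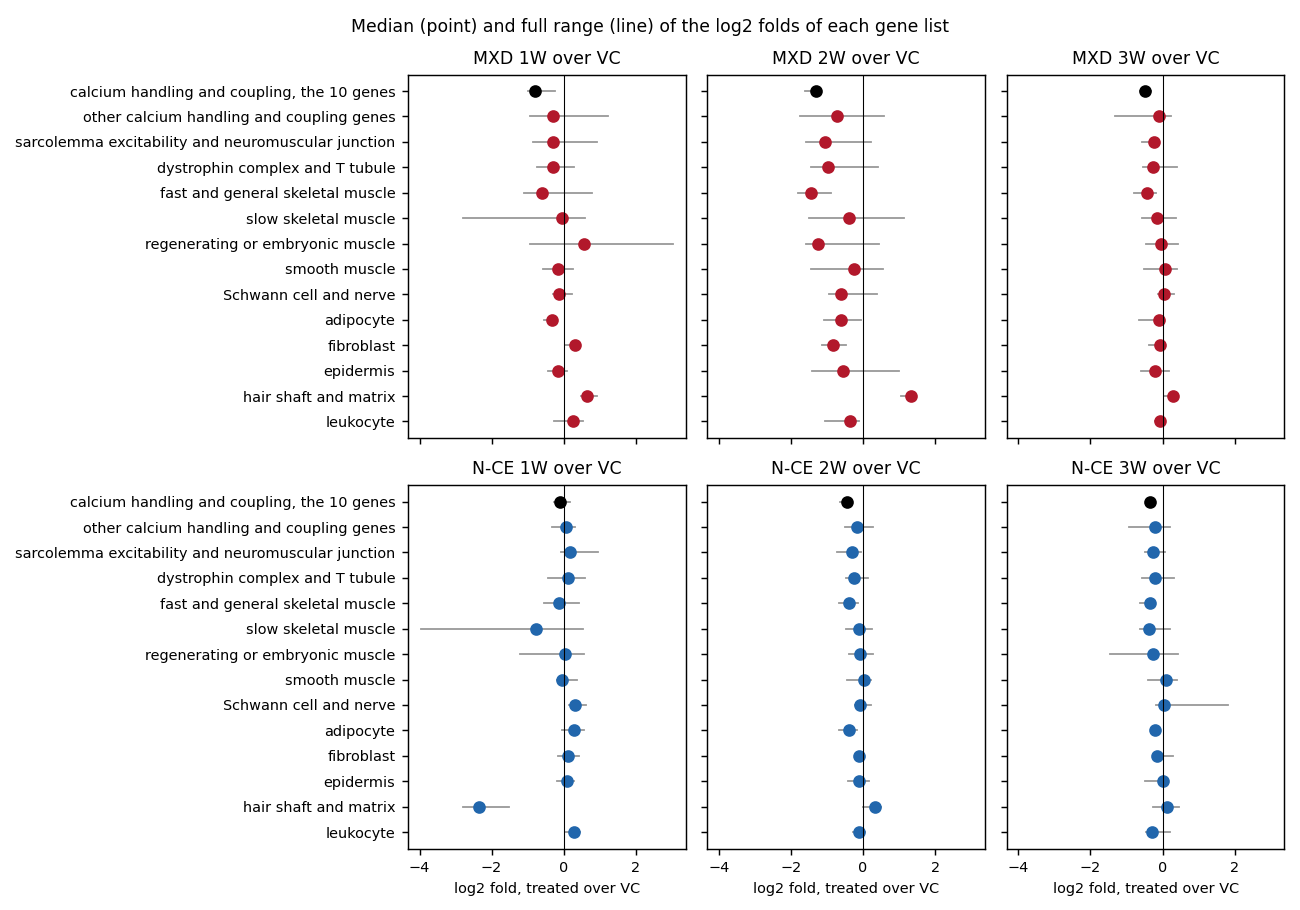
Median (point) and full range (line) of the log2 folds over VC (horizontal axis) of the 10 genes (black) and of the other gene lists (vertical axis, coloured) in the 6 comparisons, for genes above background. In MXD at 2W the 10 genes lie at -1.31 near the fast muscle list and the hair list lies at 1.32, while in N-CE at 1W the hair list lies at -2.35, the slow muscle list at -0.76 (-0.30 with normexp and loess) and the 10 genes at -0.10.

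The members were compared with their own median profile over the 12 arrays, which each of them helps to set. The root mean square distance of a gene from the median of the 10, on the log2 scale, ran from 0.079 in Srl to 0.28 in Cacng1. Of 14515 other gene names bright in all comparisons, the 10 nearest to that median included Tnnt3, the fast troponin T, at 0.074, and Dhrs7c, a dehydrogenase of the sarcoplasmic reticulum, at 0.10. Sel1l3 stood at 0.11, ankyrin 1 (Ank1) at 0.12 and the histidine-rich calcium-binding protein of the reticulum (Hrc) at 0.13. Then came the muscle phosphofructokinase Pfkm at 0.13, the lactate transporter Slc16a3, the ribosomal protein of striated muscle Rpl3l, 1 entry named only by a transcript identifier, and tropomyosin 1 (Tpm1) at 0.14. All 10 lay nearer to the median than the members Ryr1 (0.15), Jph1, Aqp4, Cacna1s, Pvalb, Atp2a1 and Cacng1. The profile was therefore not particular to the members.

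Promoters are shown as a description of the genes, and any part of them in the folds was not tested. The 250 bases before the start site were read from RefSeq (GRCm38.p6) for the 6 of 10 genes with an entry, 8 start sites in all. No promoter was used for Cacng1, Srl, Jph1 and Aqp4. The E-box CAGCTG, which reads the same on both strands and is a core bound by myogenic factors, occurred in 5 of 8 windows, those of Atp2a1, Cacna1s, Casq1 and Jph2, with both start sites of Jph2 sharing 1 copy. Of all 32851 windows of this length 13.0% hold it. The E-box CACCTG on either strand, which does not overlap it, occurred in 1 of 8, that of Casq1, against 17.2% of all windows. TATAAA occurred in 0 of 8, against 12.4%. The MEF2 motif, in the form searched here, occurred in 0 of 8, against 0.508%. Another form of the motif would count ttattaatag, which the upstream Pvalb window holds. The 0 of 8 is therefore not an absence of every form of it. A match of letters is a description and not a bound site. The windows with CAGCTG are printed 5′ to 3′ toward the start site, ending 1 base before it, with E-boxes in capitals. They lie at chr7:126463074-126463323 (minus strand, Atp2a1), chr1:172219896-172220145 (minus strand, Casq1), chr1:136052561-136052810 (plus strand, Cacna1s) and chr2:163397994-163398243 (minus strand, Jph2, the upstream start site).
Atp2a1: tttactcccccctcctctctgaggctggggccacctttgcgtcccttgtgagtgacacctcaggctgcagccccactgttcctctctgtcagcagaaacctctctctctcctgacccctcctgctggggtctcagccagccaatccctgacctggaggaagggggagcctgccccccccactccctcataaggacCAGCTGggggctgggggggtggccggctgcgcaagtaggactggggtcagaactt
Casq1: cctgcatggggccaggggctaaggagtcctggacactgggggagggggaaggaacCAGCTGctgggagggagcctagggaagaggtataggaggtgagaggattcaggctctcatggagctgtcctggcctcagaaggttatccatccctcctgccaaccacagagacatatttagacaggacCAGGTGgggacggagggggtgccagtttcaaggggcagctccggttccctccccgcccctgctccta
Cacna1s: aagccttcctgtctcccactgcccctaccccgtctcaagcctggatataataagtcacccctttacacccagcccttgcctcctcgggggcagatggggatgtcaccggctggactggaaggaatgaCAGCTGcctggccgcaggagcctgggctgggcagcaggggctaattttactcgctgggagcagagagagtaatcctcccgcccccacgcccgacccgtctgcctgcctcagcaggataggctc
Jph2: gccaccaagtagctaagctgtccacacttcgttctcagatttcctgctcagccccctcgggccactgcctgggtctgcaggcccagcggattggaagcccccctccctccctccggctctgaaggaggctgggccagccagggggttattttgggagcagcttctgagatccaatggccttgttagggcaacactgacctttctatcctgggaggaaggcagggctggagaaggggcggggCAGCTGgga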

How the data were processed

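Total RNA of whole back skin, pooled from 6 mice per group, was labelled with Cy3 and Cy5 and hybridized to Agilent whole mouse genome arrays in a dye swap. Per the file headers, the authors extracted intensities by Agilent Feature Extraction 12.0.3.1 (the submitters' processing notes name 11.0.1.1 and the study's methods an earlier version), which subtracted the background and balanced the dyes by LOWESS. The deposited log10 ratios are Cy5 over Cy3, and the deposited p-values come from the spot error model. The deposited intensity of each channel gave the levels, and the deposited matrix of log10 ratios served as an alternative. The log10 ratio is 0 where neither channel was above background, and such genes were not counted as above background.

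Log10 ratios were turned to treated over VC, converted to log2, averaged over spots of a probe without outlier flags and then over the 2 arrays, with dyes taken from the labels. A gene was read on its brightest probe. The 2 arrays of a comparison hold the same RNA pools and count as 1 replicate, so the SD is technical, the number of arrays limits the precision, and the deposited P values say nothing about variation among mice. A call needs each array at P below 0.01, with the arrays of one sign and their mean fold over 1.5 or under 0.75. Levels were log2 intensity minus the 75th percentile of the channel. The only test across samples was limma 3.58.1 (R 4.3.3) on the 3 weekly log2 folds, with Benjamini-Hochberg adjustment over all probes. It measures the spread between weeks. Alternatives were normexp background correction with offset 50 followed by loess and, for levels, Aquantile, other probes, other thresholds, the deposited matrix, and leaving out arrays or weeks. Call counts and the limma steps were tested on simulated data. Other work used Python 3.11.15 with pandas 2.3.3. Probe positions and sequences are those of the array files (mm9), and promoters are from RefSeq.

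The 10 genes and the 13 other lists were chosen with earlier results of these data known. Besides the 10 genes, the text names from each list the genes with the largest shifts in MXD at 2W or N-CE at 1W, and the 10 nearest profiles. Of these, genes not above background in 1 group are given without a value, and 1 gene that the rule names is not reported here. Other names illustrate a role and were chosen with their values seen.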

Additional observations from a re-analysis of the deposited data

Results flagged for a closer look

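Cacng1 at 1W moved apart between the treatments. It was lower than VC on both MXD arrays (-0.12 and -0.38 on the log2 scale) and higher than VC on both N-CE arrays (0.26 and 0.074), a difference of -0.42 between MXD and N-CE. Each value comes from 1 pool of RNA, and the difference was not tested. It was the only one of the 10 genes whose arrays lay on opposite sides of 0 in this way.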

How the results depend on the processing

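The calls in MXD at 1W and 2W did not change their counts by over 1.5 times under any alternative run. The count at 3W in MXD, 2 genes, became 6 by fold alone, 5 with normexp and loess by fold alone, 1 with symmetric fold thresholds, 1 with P required on every probe, and 4 without either array. In N-CE at 2W the count of 0 became 7 by fold alone, 7 with normexp and loess by fold alone, and between 0 and 7 without either array, the 7 coming without the array with N-CE in Cy5. At 3W in N-CE it became 1 by fold alone, 1 with normexp and loess by fold alone, and 0 to 2 without either array, the 2 without the array with N-CE in Cy3. The median of the 10 genes in MXD at 3W was -0.39 with normexp and loess. In N-CE at 1W the median was -0.055 over all probes of a gene and -0.18 to -0.14 without either array, and at 2W it was -0.63 to -0.36 without either array. Ryr1 in MXD at 1W turned to 0.13 on its clone-based probe, the only called value of a single gene that changed sign. With limma, the difference of MXD and N-CE gave 0 to 1100 called probes when a week was left out, the 1100 without 3W. No limma fit of MXD or of N-CE alone called a probe. Joint limma fits with week as a random block (correlation 0.178) called 0 too. For single genes, 23 values on another probe and 9 with normexp and loess moved by over 1 SD. Normexp and loess for the other gene lists was chosen after seeing the data, and at 2W in MXD it moved the median by over 1.5 times in the lists of sarcolemma, slow muscle and regenerating muscle genes, as given beside those medians. No paired analysis was possible because array numbers mark the dye orientation of the same RNA and not mice. The cause of these changes was not tested.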
